A study of Mus musculus with 4 samples.

Results

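Exons that can be kept in or left out of an mRNA (cassette exons) differ in what their loss does to the reading frame. An exon whose length is a multiple of 3 nt can be skipped without moving the frame downstream, whereas every other length shifts it. The frame-shifting simple cassette exons described here are 51 to 300 nt long, are not a multiple of 3 nt and belong to the table's class of simple events, S, for which the study allows few reads from other junctions, or S*, whose asterisk is not defined in the sources used here. They make up 20653 of the 54336 exons in the deposited cassette table, of which 19190 are S and 1463 are S*. Their lengths leave a remainder of 1 nt in 10303 exons and of 2 nt in 10350.

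A shifted frame usually runs into a stop codon soon after the junction. When such a stop lies well upstream of the last exon-exon junction, the mRNA is generally recognised and degraded by nonsense-mediated decay (NMD). For some exons skipping makes the early stop, and for others, often called poison exons, inclusion does. Genes of splicing regulators are known for poison exons, through which the cell adjusts how much of the regulator it makes.

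N2a is a neuroblastoma cell line from the mouse, and Arglu1 encodes an arginine- and glutamate-rich nuclear protein that works with transcription and splicing factors. Cells received a non-targeting siRNA (siControl) or siRNA against Arglu1 (siArglu1) for 48 h and then ethanol vehicle (Veh) or dexamethasone (Dex) at 100 nM for 4 h, which activates the glucocorticoid receptor. The 4 groups are named after siRNA and treatment, such as siArglu1 Veh. Each is 1 library of polyA-selected mRNA pooled from 3 cultures, and no difference between 2 libraries has a replicate or a test. The knockdown can be read separately with vehicle and with Dex, in pairs that share no library. The question is which of these exons differ when Arglu1 is knocked down or Dex is given, and how the reads of the same genes differ.

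Where 4 values stand without names, they are siControl with Veh and Dex, then siArglu1 with Veh and Dex. Reads on genes came to between 66074574 and 86541444 per library. Arglu1 itself had 10165 (Veh) and 11825 (Dex) reads in siControl and 2637 (Veh) and 3254 (Dex) in siArglu1, that is 26.4% of siControl in vehicle and 22.5% in Dex after scaling. Of the neuronal markers, Tubb3 had a cRPKM (reads scaled for mappable length and library size) between 564.21 and 784.63 and Stmn2 between 223.07 and 340.09, while the neurofilament genes Nefl and Nefm were below 0.1 in all libraries. All 4 astrocyte and all 4 microglia markers were below 0.1 in all libraries, and the 5 fibroblast markers summed to between 0.74 and 1.07.

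For a gene whose exon was skipped more often after knockdown, the letters below show what the ribosome would meet in the skipped form. Each run starts with the last codons before the junction, and the capitals mark the first in-frame stop in the skipped mRNA. They were built from GENCODE M21 transcripts (GRCm38), while positions are those of the deposited table (mm9 in the submitters' processing notes). Papola (poly(A) polymerase alpha, 112 nt, chr12:107046765-107046876, plus strand), Clk1 (a kinase of SR splicing factors, 167 nt, chr1:58473857-58474023, minus strand), Pot1a (a protein of telomere ends, 92 nt, chr6:25698291-25698382, minus strand), Pkd2 (polycystin 2, a cation channel, 121 nt, chr5:104919663-104919783, plus strand) and Rbck1 (a subunit of the linear ubiquitin ligase, 161 nt, chr2:152148908-152149068, minus strand) are shown because their coding exons lost inclusion after knockdown.
Papola, 112-nt exon skipped: gatggaatagaggttgcagggTAA
Clk1, 167-nt exon skipped: ccccatagtactttttttgcaTAG
Pot1a, 92-nt exon skipped: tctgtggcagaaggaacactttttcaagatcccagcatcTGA
Pkd2, 121-nt exon skipped: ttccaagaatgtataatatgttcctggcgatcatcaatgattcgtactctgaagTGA
Rbck1, 161-nt exon skipped: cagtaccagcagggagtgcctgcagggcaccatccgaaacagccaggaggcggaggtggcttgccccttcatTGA
Counted from 1 at the first base after the junction, the stop begins at base 8 in Clk1, 10 in Papola, 27 in Pot1a, 41 in Pkd2 and 61 in Rbck1.

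The next runs show the opposite case, exons that bring the stop with them. Each is the exon from its first base to the in-frame stop in capitals. They come from Prpf39 (a U1 snRNP-associated protein, 100 nt, chr12:66156421-66156520, plus strand), Thrap3 (an RS-domain protein of splicing and transcription complexes, 193 nt, chr4:125850381-125850573, minus strand) and Fnbp4 (a formin-binding protein, 103 nt, chr2:90608010-90608112, plus strand), which are the members of the list of splicing regulators with such a stop that passed 15 PSI in a knockdown pair.
Prpf39, 100-nt exon: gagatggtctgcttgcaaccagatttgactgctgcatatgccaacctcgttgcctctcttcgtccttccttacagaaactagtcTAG
Thrap3, 193-nt exon: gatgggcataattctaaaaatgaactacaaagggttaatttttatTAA
Fnbp4, 103-nt exon: gacctctggaagcaactactccTGA
The stop begins at base 85 of the exon in Prpf39, at base 46 in Thrap3 and at base 23 in Fnbp4.

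Inclusion is given as PSI, the percent of a gene's transcripts, as seen at the junctions, that contain the exon. Beside each PSI the table has a coverage score. In the companion tables of the series that give reads, the score was N for 0 to 9 reads, VLOW for 10 to 19, LOW for 20 to 39, OK for 40 to 99 and SOK for 100 or more. These ranges were assumed to hold for cassette exons, whose table gives no reads to check them with. A PSI in all 4 libraries and LOW, OK or SOK in 3 or more of them were found for 13300 frame-shifting exons, 64.4% of all, in 5955 genes. Of the others, 2238 had no PSI in at least 1 library and 5115 were too thinly covered. One exon was compared in 2585 genes and several in 3370, up to 13 in Ubr1, so that exons of a gene are not independent of each other.

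Most of these exons were nearly always included or nearly always skipped. In siControl Veh, 9948 of 13300 exons (74.8%) had a PSI of 90 or above, 2267 (17%) were below 10, and only 292 (2.2%) lay between 10 and 50 and 793 (5.96%) between 50 and 90. The median PSI was 98.53 (Veh) and 98.49 (Dex) in siControl and 98.7 (Veh) and 98.51 (Dex) in siArglu1, and the mean lay between 79.2 and 79.3. The median difference over all of them was 0 PSI for the knockdown and for Dex in either background. Among the 8917 frame-preserving exons of the same lengths compared by the same rule, a larger share lay between 10 and 50, 3.78% in siControl Veh against 2.2%. This difference was not tested.

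Coverage was not the same in the libraries. A score of SOK was reached by 69.5% (Veh) and 71.3% (Dex) of the frame-shifting exons in siControl and by 72.5% in siArglu1 Dex, but by 57.7% in siArglu1 Veh, where 1.77% had N and 4.73% VLOW. Of all compared exons, 11340 (85.3%) had OK or SOK in all libraries and 7357 (55.3%) SOK in all. The table gives no junction reads for cassette exons, so no interval can be attached to a single PSI.

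An annotated place was found for 11469 of the 13300 exons (86.2%), by the gene, the exon length and the lengths of both flanking introns in 11345 and of 1 intron in 124. For 8503 exons the included form is coding in GENCODE and skipping gives an early stop, here a stop more than 50 nt before the last junction. For 592 the skipped form is coding and inclusion gives the early stop, and 360 of these are part of a transcript annotated as a target of NMD. A further 1342 are coding when included with no early stop on skipping, 66 are coding when skipped with no early stop on inclusion, 199 have a coding form either way and 185 lie in untranslated regions. Of the exons coding when included, 85.1% (exact binomial 95% interval 84.4 to 85.8) gave an early stop on skipping, against 0.74% (0.553 to 0.969) of the frame-preserving ones.

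The form with the early stop was the minor one. Where skipping gives the stop, the median PSI in siControl Veh was 99.54 and 7973 of 8503 exons were at 90 or above. Where inclusion gives it, the median was 2.04 and 486 of 592 were below 10. The form with the stop made up 10% or more of the transcripts for 539 of 8503 exons (6.34%) of the first kind and for 106 of 592 (17.9%) of the second. mRNA that had been degraded before sampling leaves no reads, so these levels are what remained in the cells. The 1831 exons without an annotated match had a median PSI of 0.92, and 1568 of them were below 10.

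After knockdown in vehicle, 178 of the 13300 frame-shifting exons (1.34%, exact binomial interval 1.15 to 1.55) differed by at least 15 PSI, 76 higher and 102 lower in siArglu1. This size, the threshold used in the study, stands in for a test, and "changed", "higher" and "lower" refer to it in the following. Among all 32675 compared cassette exons other than microexons, 2.31% passed it, 1.02% higher and 1.29% lower. In the Dex pair 142 frame-shifting exons changed (1.07%, 0.9 to 1.26), 72 higher and 70 lower, beside 1.79% of all cassette exons, 0.851% higher and 0.943% lower. The share among frame-shifting exons was thus below that of all cassette exons in both pairs. It was also below that of frame-preserving exons, 1.97% (1.7 to 2.28) in vehicle and 1.55% (1.3 to 1.83) in Dex, and in both pairs the intervals, which cover counting of exons only, do not meet.

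Changed exons came mainly from the few with intermediate inclusion. To keep the class apart from the difference, the baseline PSI of an exon judged in one pair was taken from the siControl library of the other. In vehicle, 34 of 299 frame-shifting exons (11.4%, 8 to 15.5) with a baseline of 10 to 50 changed and 92 of 815 (11.3%, 9.2 to 13.7) with 50 to 90, against 4 of 2269 (0.176%) below 10 and 48 of 9917 (0.484%) at 90 and above. In Dex these shares were 7.88%, 9.58%, 0.132% and 0.402%. By the classes used in vehicle, 76.9% of frame-shifting exons at 10 to 50 and 76.4% at 50 to 90 had OK or SOK in all libraries. Below 10 it was 87.9%, and at 90 and above 85.6%. Counting error of a percent is also largest at intermediate values. The part that coverage and counting have in these shares was not tested. Frame-preserving exons between 10 and 50 changed in 17% (13.1 to 21.5) in vehicle and 12.5% (9.13 to 16.5) in Dex, and between 50 and 90 in 13.4% and 11.5%. Their intervals overlap those of frame-shifting exons in each class. Over baselines of 10 to 90 together, 11.3% (9.51 to 13.3) of frame-shifting and 14.6% (12.5 to 17) of frame-preserving exons changed in vehicle, and 9.12% (7.48 to 11) and 11.9% (9.89 to 14.1) in Dex.

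**Figure D1:**
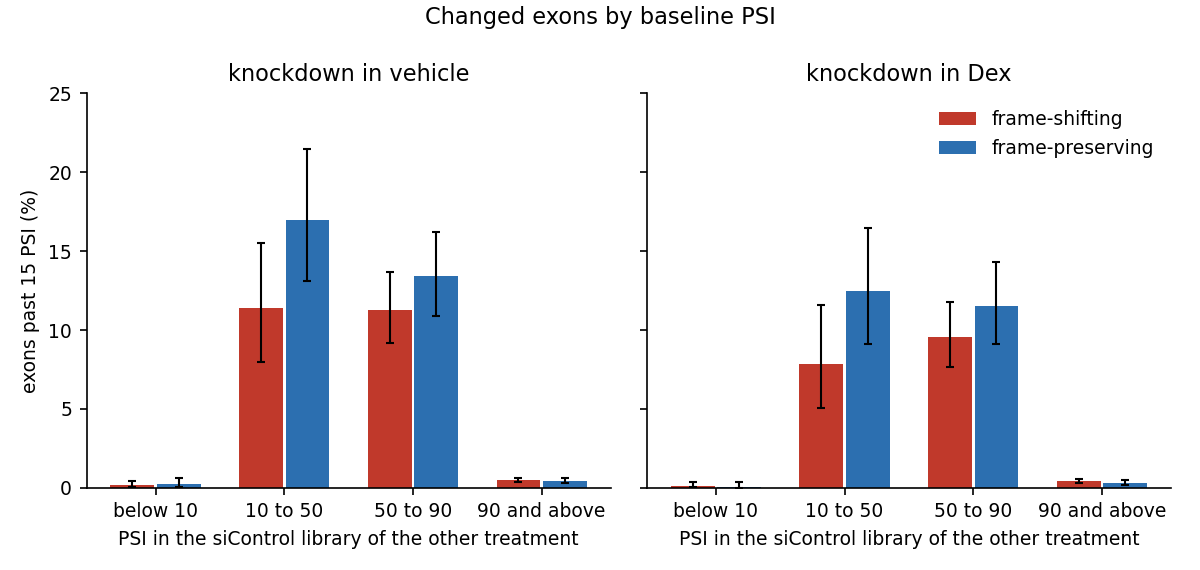
Share of exons (percent, vertical axis) with a PSI difference of at least 15 between siArglu1 and siControl, by baseline PSI taken from the siControl library of the other treatment, for frame-shifting and frame-preserving exons. Bars show the share in 1 pair of libraries and whiskers its exact binomial 95% interval, which covers counting of exons only. Frame-shifting exons with a baseline of 10 to 90 reach 7.88% to 11.4%, and those below 10 or at 90 and above stay at 0.484% or less.

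The balance of directions differed between classes. Of the 48 exons that changed in vehicle from 90 or above, 33 were lower and 15 higher. In Dex 24 of 40 were lower. Higher values in a class at 90 and above are possible because the class was read in another library. Among exons of 10 to 50, 21 were higher and 13 lower in vehicle, and 13 higher and 10 lower in Dex. Those of 50 to 90 were mixed, 37 higher and 55 lower in vehicle and 40 higher and 36 lower in Dex. PSI is bounded at both ends, so an exon at 90 or above has little room to rise by 15 PSI. An exon at 10 to 50 has more room to rise than to fall. Part of the balance in each class is thus set beforehand, and the differences in balance were not tested.

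Without regard to baseline, exons with a coding form either way had the highest share of changed exons among the annotation classes in both pairs. In vehicle 21 of 199 (10.6%, 6.65 to 15.7) changed, 4 higher and 17 lower, and in Dex 13 (6.53%, 3.52 to 10.9), 3 higher and 10 lower. Where only the included form is coding and skipping gives a stop, 104 of 8503 changed in vehicle (1.22%, 1 to 1.48), 43 higher and 61 lower, and 79 in Dex (0.929%), 40 higher and 39 lower. Where inclusion gives the stop, 9 exons were higher and 3 lower in vehicle (2.03% of 592) and 8 higher and 3 lower in Dex. In untranslated regions, 10 of 185 changed in each pair (5.41%, 2.62 to 9.72). The classes differ in baseline. Among exons with a baseline of 10 to 90, 22.7% (14.5 to 32.9) of those coding either way, 11.7% (9.08 to 14.7) of those with a stop on skipping and 10.6% (5.4 to 18.1) of those with a stop on inclusion changed in vehicle, and 14.5%, 9.18% and 9.18% in Dex. For untranslated regions it was 12.3% and 13.6%, and for the 17 exons coding when skipped with no early stop 17.6% (3.8 to 43.4) and 23.5% (6.81 to 49.9), which in Dex is above coding either way. The intervals of coding either way and of a stop on skipping overlap in both pairs.

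The pairs of libraries mostly gave the same direction. Of the 178 exons that changed in vehicle, 139 (78.1%, 71.3 to 83.9) differed in the same direction in Dex. Among those with OK or SOK in all libraries it was 79 of 96 (82.3%), and among those with SOK in all 37 of 40 (92.5%). Over all compared cassette exons these shares were 81.6%, 90.4% and 95.3%, so that frame-shifting exons were below them. Among frame-preserving exons they were 85.2% (79.1 to 90.1), 95.4% (89.6 to 98.5) and 94.7% (85.4 to 98.9). With OK or SOK in all libraries this interval does not meet that of frame-shifting exons (73.2 to 89.3), and the others overlap. The difference was not tested. By 15 PSI in both pairs, 16 frame-shifting exons were higher and 29 lower after knockdown, and 1 passed it in opposite directions. These 45 exons are 0.338% of those compared, beside 0.738% of all cassette exons, and lie in 45 genes. With OK or SOK in all libraries they were 27, 11 higher and 16 lower.

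**Figure D2:**
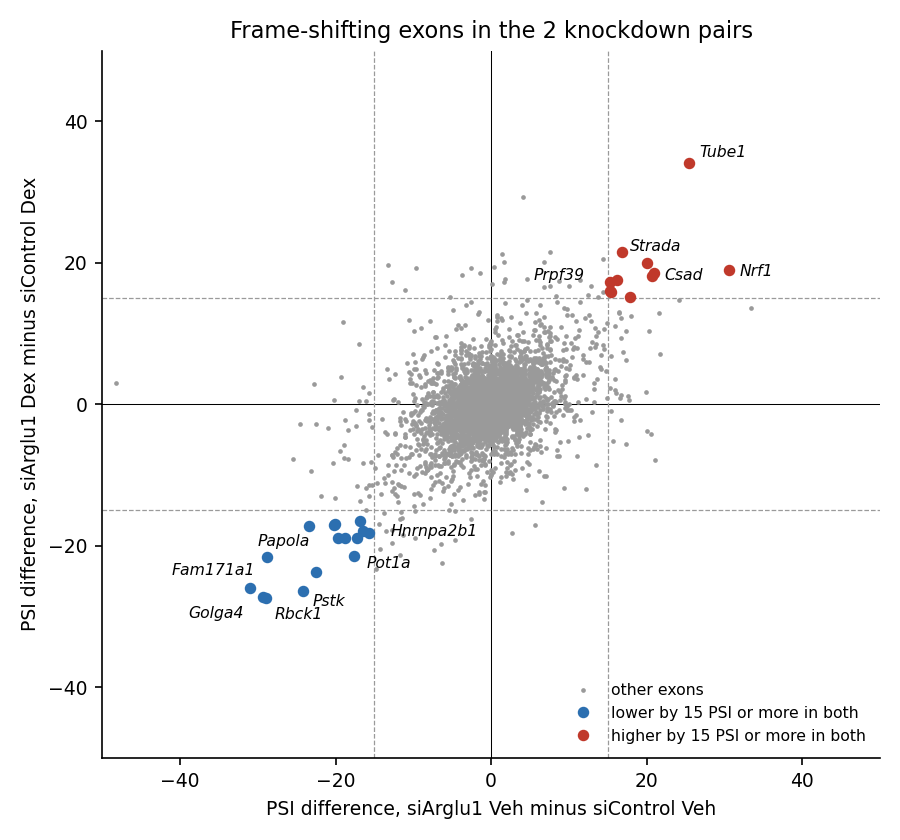
PSI difference between siArglu1 and siControl in vehicle (horizontal axis) and in Dex (vertical axis) for each frame-shifting exon with OK or SOK coverage in all libraries, in PSI points. Each point is 1 exon, dashed lines mark 15 PSI, and blue and red points are the 16 exons lower and the 11 higher in both pairs.

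Exons that lost inclusion came from genes with varied roles. The 161-nt exon of Rbck1 had a PSI of 63.47 (Veh) and 69.86 (Dex) in siControl and of 34.55 (Veh) and 42.47 (Dex) in siArglu1. The 65-nt exon of Golga4, a golgin of the trans-Golgi (chr9:118488660-118488724), had 40.74 and 38.85 in siControl and 11.43 and 11.61 in siArglu1. The 295-nt exon of Pstk, the kinase that phosphorylates seryl-tRNA on the way to selenocysteine (chr7:138517050-138517344), had 72.77 and 68.2, and 48.51 and 41.8. In each of the 3, both siArglu1 libraries lay below both siControl libraries. The exons for which this is said, here and below, were chosen by their differences in both pairs. That choice makes such a separation likely beforehand, and its share over all compared exons was not counted.

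Exons near full inclusion in control cells also lost part of it. The 112-nt exon of Papola, which makes most poly(A) tails, went from 95.41 (Veh) and 96.17 (Dex) in siControl to 75.77 (Veh) and 77.33 (Dex) in siArglu1. A second frame-shifting exon of Papola, of 73 nt, had 96.44 and 98.14 in siControl and 94.24 and 89.46 in siArglu1 and did not pass 15 PSI. The 92-nt exon of Pot1a had 93.43 and 92.05, and 75.76 and 70.61. Skipping of the Papola and Pot1a exons gives the early stops printed above.

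Of the 10 exons with the largest falls among those with OK or SOK in all libraries, the ones of Mtap6, Trim46, Tctex1d2 and Fam171a1 have a coding form with and without the exon in GENCODE. The 197-nt exon of Mtap6, which encodes a protein that stabilises microtubules (chr7:106465982-106466178), had 81.48 (Veh) and 80.21 (Dex) in siControl against 62.65 (Veh) and 61.32 (Dex) in siArglu1. The 298-nt exon of Trim46, which organises parallel microtubules in the axon (chr3:89040225-89040522), had 57.31 and 67.19 against 34.79 and 43.53. The 70-nt exon of Tctex1d2, a dynein light chain (chr16:32425327-32425396), had 64.75 and 56.89 against 35.93 and 35.36. In each, both siArglu1 libraries lay below both siControl libraries. The 115-nt exon of Fam171a1 (chr2:3140742-3140856) had 84.16 and 80.11 in siControl and 53.19 and 54.16 in siArglu1.

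Among exons that gained inclusion, the 176-nt exon of Tube1, epsilon tubulin of the centriole (chr10:38864562-38864737), had a PSI of 51.46 (Veh) and 48.45 (Dex) in siControl and 76.92 (Veh) and 82.51 (Dex) in siArglu1. The 56-nt exon of Nrf1, a transcription factor of genes for mitochondrial respiration (chr6:30090216-30090271), had 19.77 and 27.38 in siControl and 50.43 and 46.37 in siArglu1. The 58-nt exon of Strada, a pseudokinase that activates the kinase LKB1 (chr11:106045876-106045933), had 55.19 and 56.35, and 75.21 and 76.27. In these 3 the siArglu1 libraries lay above both siControl libraries.

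Further exons that gained inclusion had a skipped form with an early stop. The 82-nt exon of Csad, the decarboxylase of taurine synthesis (chr15:102009952-102010033), had 18.84 (Veh) and 17.46 (Dex) in siControl and 39.53 (Veh) and 35.65 (Dex) in siArglu1. The 206-nt exon of Nagpa, which uncovers the mannose 6-phosphate signal of lysosomal enzymes (chr16:5198824-5199029), had 71.79 and 75.56, and 87.05 and 91.62. The 116-nt exon of Trmt2a, a tRNA methyltransferase (chr16:18251452-18251567), had 71.36 and 73.46, and 86.63 and 90.71. For these and for Tube1, more inclusion meant less of the form with the stop. Among exons with OK or SOK in all libraries, to which the choice of named exons was limited, the others of the 10 largest rises were those of Arhgap33 (83 nt), Arsk (130 nt), Prpf39 (100 nt) and Atp9b (77 nt). The one of Arsk, an arylsulfatase, had 70 and 57.14 in siControl and 86.84 and 78.72 in siArglu1, so that the groups did not overlap.

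**Figure D3:**
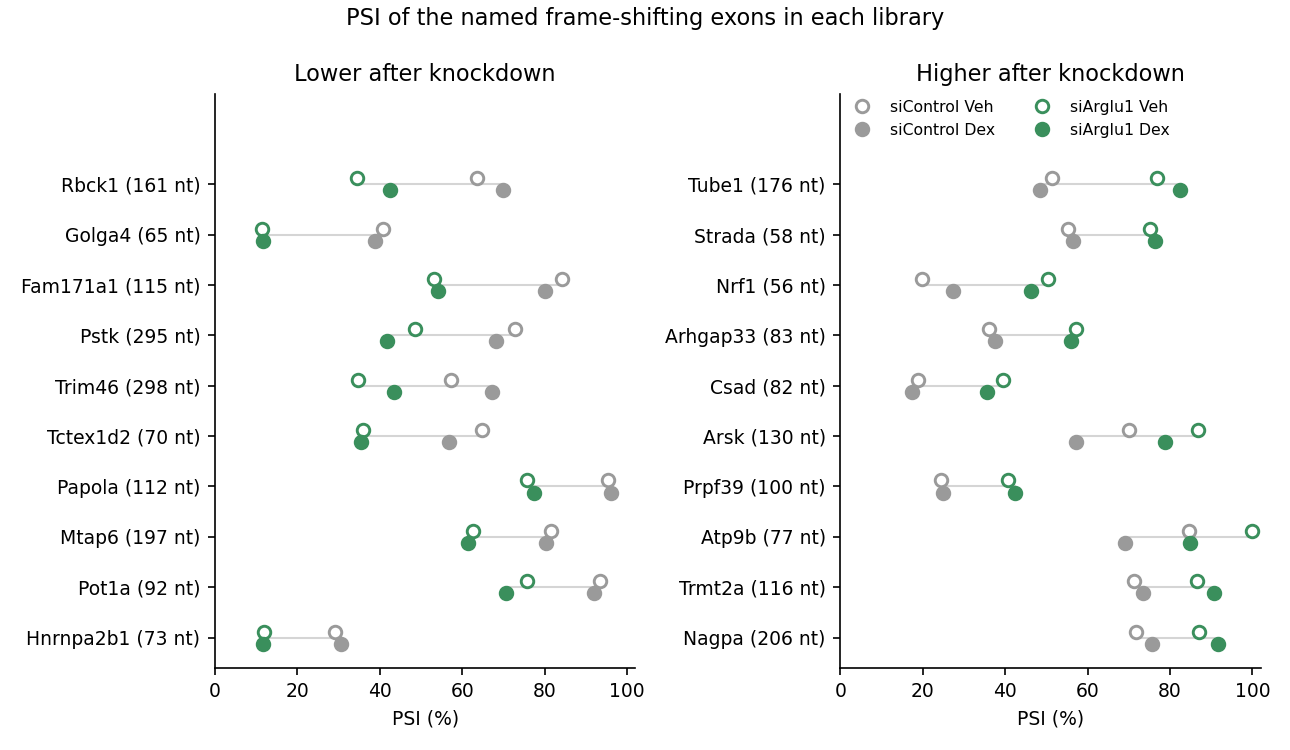
PSI (percent, horizontal axis) of the 10 frame-shifting exons with the largest falls and the 10 with the largest rises by the smaller of their 2 knockdown differences, 1 exon per gene with OK or SOK coverage in all libraries. Each symbol is 1 library, open for Veh and filled for Dex, grey for siControl and green for siArglu1. The siArglu1 symbols of Rbck1 lie at 34.55 and 42.47, below its siControl symbols at 63.47 and 69.86. In Atp9b, siControl Veh at 84.62 and siArglu1 Dex at 84.85 almost coincide.

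Splicing regulators were looked at as a list of 221 symbols, of which 113 genes held 220 compared exons. In vehicle 3 of these exons were higher and 1 was lower (1.82%, 0.498 to 4.59), and in Dex 3 were higher and 3 lower (2.73%, 1.01 to 5.84), beside the 1.34% and 1.07% of all frame-shifting exons, which lie within these intervals. Of 42 exons in 14 genes of NMD factors, 0 changed in vehicle and 0 in Dex, which allows a share of up to 8.41%. The median difference was 0 PSI for both lists in both pairs, as it was for all frame-shifting exons.

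In Prpf39 and Thrap3 the exon with the stop gained inclusion while the gene had fewer reads. The Prpf39 exon had a PSI of 24.5 (Veh) and 24.86 (Dex) in siControl and of 40.68 (Veh) and 42.49 (Dex) in siArglu1. Reads on Prpf39 numbered 6574, 7419, 4463 and 6433 and gave a log2 ratio of -0.54 (exact interval -0.59 to -0.48) in vehicle and -0.49 (-0.55 to -0.45) in Dex after scaling for library size. Such intervals take the reads of both libraries as given, and so cover counting error only. The Thrap3 exon had 64.44 and 67.82 in siControl and 81.82 and 78.18 in siArglu1, past 15 PSI in vehicle alone. Thrap3 had 18659, 20194, 12881 and 18974 reads, and the log2 ratio was -0.51 with vehicle and -0.38 with Dex. Reads scaled in this way are a share of the library, so less RNA from this gene and more from others cannot be told apart.

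Clk1 gave the mirror image. Its 167-nt exon had a PSI of 91.33 (Veh) and 93.81 (Dex) in siControl and 77.84 (Veh) and 75.92 (Dex) in siArglu1, past 15 PSI in Dex alone, and skipping brings the stop printed above. Reads on Clk1 numbered 4165, 4575, 3195 and 3845, and the log2 ratio was -0.36 (-0.42 to -0.29) with vehicle and -0.54 (-0.61 to -0.48) with Dex. Fnbp4 did not follow this pattern. Its exon with a stop had 38.52 and 40.71 in siControl and 27.17 and 22.26 in siArglu1, and the gene also had fewer reads, with log2 ratios of -0.32 and -0.26. The list's other exons whose inclusion gives an early stop and that differed by at least 5 PSI in both pairs were in Ccnl1 and Luc7l. The Ccnl1 stop begins at base 29 of the exon, whereas the Luc7l exon does not itself hold the stop. That of Ccnl1 differed by 7.54 and 9 PSI, with log2 ratios of reads of 0.115 and -0.055. That of Luc7l differed by -8.48 and -8.22 PSI, with 0.32 and 0.27. Fewer reads were also the median over the list, as given below.

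The 73-nt exon of Hnrnpa2b1, an abundant hnRNP protein that binds nascent and exported RNA (chr6:51411982-51412054), has no match among the GENCODE exons. Its PSI was 29.04 (Veh) and 30.66 (Dex) in siControl and 11.8 (Veh) and 11.7 (Dex) in siArglu1. The gene had 120554, 130604, 87087 and 109977 reads, and the log2 ratio was -0.45 with vehicle and -0.54 with Dex. A 56-nt exon of Khdrbs1 (Sam68, an RNA-binding signal transducer) had 14.29 and 8.33 in siControl and 30 and 28.89 in siArglu1, at coverage scores of LOW, OK, VLOW and LOW. The 73-nt exon of Prpf4b, a kinase of the spliceosome, had 24.56 (Veh) and 13.6 (Dex) in siControl and 20.88 (Veh) and 31.85 (Dex) in siArglu1, so that it was higher by more than 15 PSI in Dex and slightly lower in vehicle. Over the 113 regulator genes the median ratio of reads, as log2, was -0.29 with vehicle and -0.27 with Dex, and over the 14 genes of NMD factors -0.44 and -0.30. It was -0.07 and -0.05 over the 5914 genes with a compared frame-shifting exon and enough reads, and 0.00 over all 12497 genes compared.

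**Figure D4:**
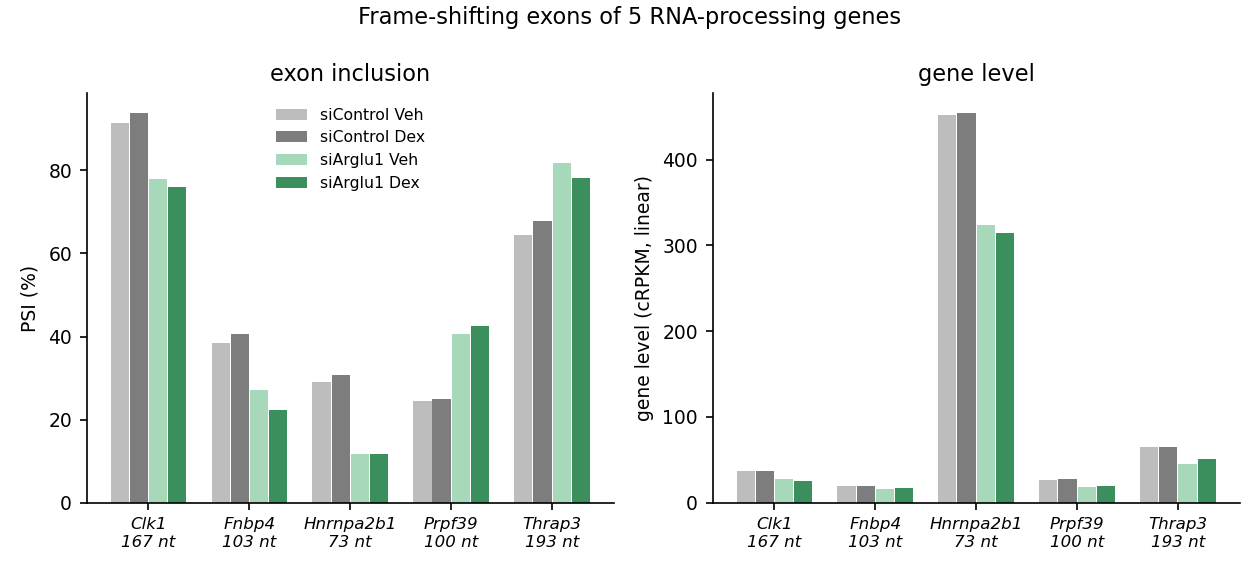
PSI (percent, left) of frame-shifting exons in Clk1, Fnbp4, Hnrnpa2b1, Prpf39 and Thrap3, and cRPKM of the same genes (linear scale, right), in each of the 4 libraries. Each bar is 1 library. The Prpf39 exon stands at 24.5 and 24.86 in siControl and at 40.68 and 42.49 in siArglu1, and its gene at 26.46 and 27.7 cRPKM in siControl and 17.82 and 19.77 in siArglu1.

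Over all exons with an early stop, genes that shifted towards the form with the stop had the lower median of reads. To keep the readings apart, exons were chosen in 1 pair and gene reads taken from the other. In vehicle, 70 of 9095 exons shifted by at least 15 PSI towards the form with the stop, and the median log2 ratio of their 69 genes in Dex was -0.28 (order-statistic 95% interval -0.38 to -0.07), with 47 genes below 0. The 46 exons that shifted away from it had a median of 0.09 (-0.16 to 0.26) over 43 genes, 20 of them below 0. All 4523 genes with such an exon had a median of -0.07 in Dex and -0.11 in vehicle, with 2603 genes below 0 in Dex and 2695 in vehicle. With the roles of the pairs exchanged, 47 exons shifted towards the stop in Dex and their 45 genes had a median of -0.34 (-0.47 to -0.17) in vehicle, while the 43 genes of exons that shifted away had 0.11 (-0.15 to 0.32). Medians below 0 were also found for frame-preserving exons that are coding when included, with no early stop on skipping. Where such an exon fell in vehicle, 32 genes had -0.26 (-0.35 to -0.13) in Dex, 29 of them below 0, beside 2680 of all 4754 genes with a compared frame-preserving exon. Where it rose, 27 genes had -0.07. With the pairs exchanged, 26 genes had -0.43 in vehicle where the exon fell in Dex, and 23 had -0.4 where it rose. The difference from exons with an early stop was not tested.

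Medians of reads were ordered by the size of the PSI difference where skipping gives the stop. Where skipping gives the stop, genes whose exon fell by 15 PSI or more in vehicle had a median log2 ratio in Dex of -0.25 (60 genes), those at 5 to 15 below had -0.18 (386), those within 5 PSI had -0.07 (4022), those at 5 to 15 above had -0.03 (309), and those that rose by 15 or more had 0.08 (40). Where inclusion gives the stop, the ends were the other way round and the middle was not ordered, from 0.22 (3 genes) through -0.08 (28), -0.05 (473) and -0.16 (50) to -0.38 (9 genes with the exon higher by 15 or more, 7 of them below 0). The relation was weak for single exons. Across 519 exons of the first kind with OK or SOK in all libraries and at least 5 PSI of difference in vehicle, Spearman's rho between PSI difference in vehicle and log2 ratio of reads in Dex was 0.17, and across 61 exons of the second kind it was 0. These points share their libraries, and some share a gene.

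**Figure D5:**
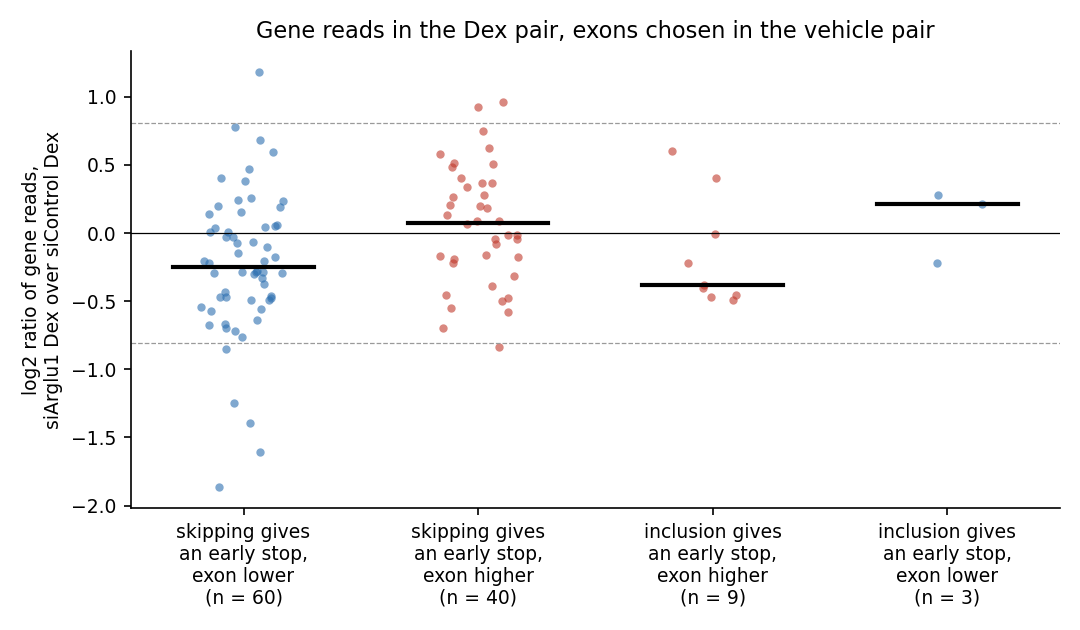
Log2 ratio of gene reads, siArglu1 Dex over siControl Dex (vertical axis), for genes with a frame-shifting exon that differed by at least 15 PSI in the vehicle pair, by what skipping or inclusion does to the frame. Each point is 1 gene, black bars are medians and dashed lines mark a log2 ratio of 0.81 in either direction. The medians are -0.25 for 60 genes with less of an exon whose skipping gives an early stop and 0.08 for 40 with more of it. Where inclusion gives the stop, they are -0.38 for 9 genes with more of the exon and 0.22 for 3 with less.

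By baseline PSI, the median was lowest where the exon had been almost fully included. Genes whose frame-shifting exon fell in vehicle had a median log2 ratio of -0.35 (-0.58 to -0.29) in Dex for a baseline of 90 and above (32 genes, 27 below 0), of -0.1 (-0.16 to 0.05) for 50 to 90 (53 genes) and of -0.23 (-0.48 to 0.01) for 10 to 50 (12 genes). For all 98 it was -0.19 (-0.29 to -0.11), beside -0.05 over the 5914 genes with a compared exon and enough reads, of which 3254 were below 0. Genes whose exon rose in vehicle had a median of -0.02 (-0.17 to 0.09) over 72 genes, of -0.01 for a baseline of 10 to 50 (21 genes), of 0.06 for 50 to 90 (36 genes) and of -0.02 for 90 and above (12 genes).

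Coverage and frame-preserving exons stand beside this result. Of the 33 exons that fell in vehicle from 90 or above, 7 had the score N and 8 VLOW in siArglu1 Veh, and over all compared exons the genes of those scored N there had medians of -0.64 with vehicle and -0.39 with Dex, against 0.01 and -0.02 for SOK. With OK or SOK in all libraries, 14 genes remained for this class with a median of -0.32 in Dex, 12 of them below 0. Genes of frame-preserving exons that fell in vehicle had a median of -0.22 (-0.29 to -0.13) in Dex over 98 genes and of -0.22 over the 16 with a baseline of 90 and above, and those of exons that rose had -0.12 (-0.29 to 0.04) over 73. The difference between frame-shifting and frame-preserving exons was not tested, and neither was the part that coverage has in it.

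Single genes with a large difference of the exon were also looked at for a large difference in reads. A log2 ratio of at least 0.81, the size used in the study for knockdown, was passed by 15.8% of the 12497 genes in vehicle, by 12.1% in Dex and by 9.89% in both the same way. Of the 45 exons that changed in both pairs, 3 lay in a gene that passed it in both, Pkd2 and Phf20l1 with fewer reads and Nagpa with more. This share was not tested against the 9.89% of all genes. The share in both pairs among genes with a compared exon was not counted. Of the 170 genes of exons that changed in vehicle, 27 passed it in vehicle (15.9%, 10.7 to 22.3), 21 with fewer and 6 with more reads, against 624 of the 5914 genes with any compared exon (10.6%). In Dex it was 10 of 136 (7.35%, 3.58 to 13.1), against 7.1%.

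The 121-nt exon of Pkd2 had a PSI of 93.64 (Veh) and 92.34 (Dex) in siControl and 68.89 (Veh) and 67.03 (Dex) in siArglu1. Pkd2 had 4858, 4928, 1807 and 2540 reads, and the log2 ratio was -1.4 (-1.48 to -1.32) with vehicle and -1.25 (-1.32 to -1.18) with Dex. The exon's score was SOK in both siControl libraries and LOW and OK in siArglu1.
The 100-nt exon of Phf20l1, a Tudor-domain reader of methylated lysine (chr15:66462429-66462528), had 75.17 and 87.6 in siControl and 54.55 and 69.7 in siArglu1, with 2270, 2358, 943 and 1600 reads on the gene and log2 ratios of -1.24 and -0.85. Nagpa, whose exon rose, had 851, 884, 1522 and 2047 reads and log2 ratios of 0.86 (0.74 to 0.99) and 0.92 (0.8 to 1.03). In Pkd2 and Phf20l1 the form with the stop increased with fewer reads, and in Nagpa it decreased with more.

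Other exons that fell in both pairs had genes with fewer reads that missed the size in Dex. The 151-nt exon of Gabbr1, a subunit of the GABA-B receptor (chr17:37204159-37204309), had 65.96 (Veh) and 73.17 (Dex) in siControl and 42.86 (Veh) and 46.07 (Dex) in siArglu1, and the log2 ratios of the gene were -0.97 and -0.66. Golga4 had log2 ratios of -0.85 and -0.64, and the form without the exon is the coding one in GENCODE and inclusion gives no early stop. The 100-nt exon of Ccdc18 had 100 in both siControl libraries and 80.95 and 83.78 in siArglu1, with scores of OK, LOW, VLOW and LOW and log2 ratios of -0.86 and -0.67.

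Other genes had more reads beside more of the form with the stop, or beside an exon that is coding either way. Reads on Rbck1, where skipping gives a stop and the exon fell by 28.92 PSI in vehicle, numbered 3301, 3529, 3814 and 5101, and the log2 ratio was 0.23 (0.17 to 0.3) with vehicle and 0.24 (0.17 to 0.3) with Dex. Fam171a1, coding either way, had log2 ratios of 0.61 and 0.7 with an exon that fell, and Polr3gl, a subunit of RNA polymerase III whose 130-nt exon fell from 95.83 and 100 to 80.39 and 81.4, had 0.59 and 0.47, with an early stop on skipping. The 208-nt exon of Fbxo17, an F-box protein, holds an early stop and rose from 45.45 and 43.66 to 62.64 and 64.15, while the gene had log2 ratios of 0.73 and 0.6. Papola, with more of the form with the stop, had 19305, 20732, 16232 and 21940 reads, fewer after scaling, with log2 ratios of -0.23 and -0.21. Of the 29 exons lower in both pairs, the gene had fewer reads in both pairs for 18 and more in both for 7, and of the 16 higher in both pairs for 5 and 7. Over the 5914 genes with a compared exon and enough reads, 3312 had a log2 ratio below 0 in vehicle and 3254 in Dex. How many of those had it in both pairs was not counted.

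Among 19 genes that the study names for RT-PCR of splicing, 14 hold a compared frame-shifting exon, 38 exons in all, of which 5 changed in vehicle and 5 in Dex. The changed exons are those of Rbck1, Papola and Csad given above and those of Klhdc3 and, in 1 pair each, of Numb and Tmtc1. Over all frame-shifting exons, 1.34% changed in vehicle and 1.07% in Dex. The study took events past 15 PSI in its RNA-seq to RT-PCR, which makes changed exons in these genes likely beforehand. The 146-nt exon of Klhdc3 (chr17:46815991-46816136) had 80.08 (Veh) and 82 (Dex) in siControl and 63.16 (Veh) and 65.46 (Dex) in siArglu1. An 85-nt exon in the upstream untranslated region of Numb, an inhibitor of Notch signalling, had 45.45, 48.57, 61.9 and 61.67 in the same order, past 15 PSI in vehicle. A 74-nt exon of Tmtc1, an enzyme of protein O-mannosylation, had 71.71, 55.03, 77.51 and 73.66, past it in Dex, with siControl Dex the lowest of the libraries. The 8 frame-shifting exons of Mpdz and the one of Tnik were at 93.55 or above in all libraries. The exons of this paragraph were chosen by gene, so they need not be the ones that the study measured. For Numb and Tnik the paper reports more exon skipping after knockdown, and for Mpdz a splicing event modulated by Dex.

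Dex changed fewer frame-shifting exons than the knockdown. In siControl 63 of 13300 passed 15 PSI after Dex (0.474%, 0.364 to 0.606), 26 higher and 37 lower, beside 0.646% of all cassette exons, and in siArglu1 60 did (0.451%, 0.344 to 0.58), 33 higher and 27 lower, beside 0.836%. Of the 63, 34 (54%, 40.9 to 66.6) had the same direction in siArglu1, 3 passed 15 PSI there in the same direction and 4 in the opposite one. With OK or SOK in all libraries 17 exons changed in siControl and 16 in siArglu1, and with SOK in all 0 and 1.

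The exons with the largest response to Dex, by the smaller of the differences in both backgrounds, were taken from those with OK or SOK in all libraries, which leaves out 2 of the 3 that passed 15 PSI in both. The 176-nt exon of Lrrc28 (chr7:74676501-74676676) had a PSI of 77.78 (Veh) and 65.08 (Dex) in siControl and of 81.25 (Veh) and 70.11 (Dex) in siArglu1. The 74-nt exon of Trpm2, a cation channel (chr10:77380825-77380898), had 97.33 and 85.54, and 96.23 and 85.86. The 77-nt exon of Atp9b, a P4-type ATPase, had 84.62 and 68.97, and 100 and 84.85, so that it was lower with Dex and higher with siArglu1 in each background.
In the other direction, the 125-nt exon of Tln2, a talin of focal adhesions (chr9:67088487-67088611), had 28.93 and 40.79 in siControl and 25.55 and 37.16 in siArglu1. The 112-nt exon of Pigq, of GPI anchor synthesis (chr17:26068407-26068518), had 43.72 and 54.26, and 35.25 and 45.86, and the 110-nt exon of Efcab7 (chr4:99569952-99570061) 82.51 and 93.76, and 87.57 and 100. In all of these but Atp9b both Dex libraries lay on the same side of both Veh libraries, which their choice by the differences in both backgrounds makes likely beforehand. Atp9b is the only one of the 6 past 15 PSI in both.

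Sequence features of the exons that changed in both knockdown pairs are set beside those of all compared exons. The median length was 121 nt for the 29 lower and 111.5 nt for the 16 higher exons, against 116 nt for all compared. The GC content of the exon had a median of 48.4% (27 exons with a sequence) and 51.8% (15 exons), against 50% for all, with quartiles at 43.8% and 55.5%. The median upstream intron was 1569 nt for lower and 726 nt for higher exons against 1499 nt, and the median downstream intron 1233 nt and 883 nt against 1476 nt. The 6-letter motifs CGGAGG and CGGGGG, searched in the exon on its sense strand only, were found in 1 of 27 lower and 0 of 15 higher exons and in 3.45% of all 11469 exons with a sequence. With so few exons these are descriptions.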

How the data were processed

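The authors counted reads per gene and deposited the counts, not normalized, with RPKM corrected for mappable length (cRPKM), and a table of PSI in percent with coverage scores. The submitters' processing notes name Bowtie and mm9; the paper names vast-tools for splicing. Library sizes were adjusted by TMM (edgeR 4.0.16, R 4.3.3). Log2 ratios come from log CPM at a prior count of 1; genes under 75 reads in total were dropped, which left 12497. Exons needed a PSI in all libraries and LOW or better in 3. Differences are siArglu1 minus siControl and Dex minus Veh. Since groups are single libraries, pairs of libraries were compared by size, with thresholds of 15 PSI and 0.81 on the log2 scale, and not tested. Additive models of siRNA and treatment over the 4 libraries, which have 1 residual degree of freedom and assume no interaction, were fitted as alternatives with limma 3.58.1 on PSI and edgeR on reads, beside DESeq2 1.42.0 size factors.

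Exons were matched to GENCODE M21 by Ensembl gene and by exon and intron lengths, without converting coordinates, since no mm9 genome was used here; for a gene with several coding transcripts the one with the longest coding sequence was read. Scripts were tested on simulated data. Members, lists and the naming rule were chosen with earlier results of these data known, and the annotation classes, the exchange of pairs and the motif search after PSI values had been seen. Named exons are the 10 largest falls and rises by the smaller knockdown difference, those of listed splicing regulators and NMD factors past 15 PSI, the 5 largest falls and rises in gene reads among exons changed in both pairs, the 3 of each after Dex, and those in genes the study names for RT-PCR. Some of the marker genes looked at are not reported here.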

Additional observations from a re-analysis of the deposited data

Results flagged for a closer look

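In 5 frame-shifting exons the difference passed 15 PSI in opposite directions in the 2 backgrounds that can be set side by side. Each background has 1 pair of libraries, and the difference between backgrounds was not tested. Of 13300 compared exons, 1 did so for knockdown and 4 for Dex, beside 8 and 18 of all 32675 compared cassette exons other than microexons. With SOK in all libraries it was 0 frame-shifting exons for both. The 101-nt exon of Crtc3, a coactivator of CREB (chr7:87761351-87761451), differed by -19.28 PSI after knockdown in vehicle and by 15.76 in Dex, with 94.54 (Veh) and 84.24 (Dex) in siControl and 75.26 (Veh) and 100 (Dex) in siArglu1, at scores of LOW, LOW, VLOW and LOW. The other 4 differed in their response to Dex, each lower with Dex in siControl and higher with Dex in siArglu1. The 121-nt exon of Ccbl1, a kynurenine aminotransferase, gave -15.29 and 17.7, with OK or SOK in all libraries. The 82-nt exon of Slc25a40, a mitochondrial carrier, gave -15.68 and 22.66, with LOW in siArglu1 Veh. The 80-nt exon of Slc38a6, of an amino acid transporter family, gave -17.78 and 30.07, and the 85-nt exon of Taok3, a kinase, gave -18.77 and 17.58, both with VLOW in siArglu1 Veh.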

How the results depend on the processing

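No paired analysis was possible because each group is 1 library, so that groups share a single replicate number. The additive models given here compare siRNA within treatment. Counts of changed exons are given for knockdown in vehicle, knockdown in Dex, both pairs the same way, Dex in siControl and Dex in siArglu1, in this order. They were 438, 364, 133, 198 and 247 at 10 PSI and 26, 18, 7, 7 and 8 at 25 PSI. They were 96, 78, 27, 17 and 16 with OK or SOK in all libraries, 40, 36, 17, 0 and 1 with SOK in all, and 1065, 953, 245, 850 and 888 with no coverage minimum. Balanced junction reads left 104, 82, 23, 34 and 33, and 1 exon per gene 88, 68, 21, 30 and 20, since fewer exons were counted. Without S* each count was within 1.5 times the main one. Requiring LOW or better in all libraries, added after seeing the data, gave 128 in vehicle and 38 in both pairs. For knockdown, the additive limma model on PSI, with 1 residual degree of freedom, called 0 of the 13300 exons at an adjusted p of 0.05 in place of the counts in vehicle and in both pairs, and 1324 (9.95%) at an unadjusted p under 0.05, beside 11% of all cassette exons. The median log2 ratio of genes whose exon fell from 90 and above was -0.26 at 10 PSI, outside the interval of the main value; under its other 10 alternatives, of which choosing exons in Dex and LOW or better in all libraries were added after seeing the data, it was within it. The other medians by baseline for genes whose exon fell or rose in vehicle stayed within their intervals. Those for the form with the stop, for steps of PSI and for lists were not recomputed. With the trend on mappable length removed, the median of all genes with a compared exon was -0.02 in both pairs. Exons changed in both pairs whose gene changed in both were 1 with OK or SOK in all libraries, 9 at 10 PSI, 0 at a log2 ratio of 1.5, 8 at 0.58, and 32 by the additive edgeR model, which called 61.6% of all genes. With 1 library per group no replicate could be left out, and the table's lack of junction reads leaves single PSI values without an interval.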
